A study of Mus musculus with 24 samples.

Results

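The genes described here encode the proteins of the mitochondrial ribosome. They were picked out by name alone, as the rows of the gene tables whose symbol is Mrpl or Mrps followed by a number and at most 1 letter. No measured value entered that rule, but it was set with earlier results of these data known. The rule found 78 genes among the 55421 in the tables, 49 of the large subunit (Mrpl) and 29 of the small subunit (Mrps). All 78 passed the filter on low counts that left 13847 genes for testing, and they lie on 17 chromosomes. Polyadenylated RNA was sequenced from hepatocytes of 24 male C57BL/6J mice, the cells being freed from the liver by a perfusion in 2 steps. The group ND+veh (n = 8) ate a normal diet with vehicle throughout. The group HFD+veh (n = 7) received vehicle in the same way but was moved at 18 months of age to a high-fat diet with 60% of its calories from fat, for 9 weeks. The group HFD+eRapa (n = 9) ate 42 ppm of encapsulated rapamycin, an inhibitor of the kinase complex mTORC1, from 4 months of age and was moved to the same high-fat diet at 18 months, also for 9 weeks. The drug was therefore present long before the diet changed, no group received rapamycin on normal diet, and all libraries carry batch label 1. The 3 questions were what the diet did to these transcripts, what rapamycin did on the high-fat diet, and how far rapamycin-fed animals on the high-fat diet stood from animals on normal diet.

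Mitochondria keep a small genome that encodes core subunits of the respiratory chain, and a dedicated ribosome inside the organelle translates its messages. The ribosomal RNAs of that ribosome come from the mitochondrial genome, whereas every one of its proteins is encoded in the nucleus, made in the cytosol and imported. Some of the proteins descend from bacterial ribosomal proteins and others exist only in mitochondria. In hepatocytes, which are rich in mitochondria, the respiratory chain it builds serves fat oxidation, gluconeogenesis and the urea cycle.

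The stretch around the transcription start was examined first, because nuclear genes for mitochondrial proteins are known for start-proximal sites of NRF1, of ETS factors such as GABP, and of YY1. RefSeq windows of the GRCm38.p6 build, from 250 bases before to 50 bases after the start, matched 69 members by symbol (43 large, 26 small). Mrpl4, Mrpl13, Mrpl15, Mrpl19, Mrpl38, Mrpl54, Mrps28, Mrps34 and Mrps35 had none. The ETS core CCGGAAG, searched on both strands, was in 26 of 69 members (37.7%), against 19.5% of the 10366 tested genes with a window and 9.93% of all 27025 genes with one. The NRF1 core GCGCATGCG was in 7 members (10.1%), against 3.93% of tested genes and 1.95% of all genes. The YY1 core AAGATGGCG was in 8 members (11.6%), against 3.47% and 1.64%. The ERR core TCAAGGTCA was in none of the 69 windows, against 0.328% of tested genes, and the E-box CACGTG was in 5 (7.25%), against 11.6%. The letters of these motifs were not required to be free of one another, and a match describes the sequence and not a bound site.

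Windows are printed for 6 members that changed in a comparison below and hold at least 1 of the motifs, so that the motifs can be seen where they sit. Each reads 5′ to 3′ on the strand of the gene, and capitals mark every match on either strand. The first 3 are large subunit members with the NRF1 core, Mrpl9 (chr3:94443086-94443385, plus strand), Mrpl17 (chr7:105811038-105811337, minus strand) and Mrpl10 (chr11:97041332-97041631, plus strand). Mrpl42 (chr10:95501900-95502199, minus strand) and Mrps11 (chr7:78782881-78783180, plus strand) hold the YY1 core, and Mrps18a (chr17:46110754-46111053, plus strand) holds both the ETS and the YY1 core.
Mrpl9: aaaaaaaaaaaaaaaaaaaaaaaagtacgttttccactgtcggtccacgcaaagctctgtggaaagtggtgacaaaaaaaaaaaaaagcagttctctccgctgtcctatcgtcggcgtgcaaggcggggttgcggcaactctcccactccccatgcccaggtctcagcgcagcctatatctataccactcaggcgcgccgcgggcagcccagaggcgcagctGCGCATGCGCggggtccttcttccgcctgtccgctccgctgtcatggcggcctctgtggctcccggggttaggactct
Mrpl17: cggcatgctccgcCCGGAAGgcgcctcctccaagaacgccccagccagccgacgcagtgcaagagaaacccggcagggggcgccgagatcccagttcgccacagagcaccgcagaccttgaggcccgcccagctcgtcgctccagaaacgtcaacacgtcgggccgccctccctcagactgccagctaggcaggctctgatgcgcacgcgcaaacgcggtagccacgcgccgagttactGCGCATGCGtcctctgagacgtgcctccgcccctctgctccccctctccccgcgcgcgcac
Mrpl10: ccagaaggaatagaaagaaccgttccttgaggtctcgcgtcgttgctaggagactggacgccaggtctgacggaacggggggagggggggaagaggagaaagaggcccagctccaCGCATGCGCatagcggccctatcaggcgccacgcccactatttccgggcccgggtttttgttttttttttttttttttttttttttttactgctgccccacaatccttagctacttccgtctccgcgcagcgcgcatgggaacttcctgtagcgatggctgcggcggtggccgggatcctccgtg
Mrpl42: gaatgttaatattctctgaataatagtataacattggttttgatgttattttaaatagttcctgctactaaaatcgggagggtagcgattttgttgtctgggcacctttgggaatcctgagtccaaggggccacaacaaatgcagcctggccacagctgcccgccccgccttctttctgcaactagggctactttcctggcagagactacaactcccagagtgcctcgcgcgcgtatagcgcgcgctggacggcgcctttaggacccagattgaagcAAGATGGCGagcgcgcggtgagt
Mrps11: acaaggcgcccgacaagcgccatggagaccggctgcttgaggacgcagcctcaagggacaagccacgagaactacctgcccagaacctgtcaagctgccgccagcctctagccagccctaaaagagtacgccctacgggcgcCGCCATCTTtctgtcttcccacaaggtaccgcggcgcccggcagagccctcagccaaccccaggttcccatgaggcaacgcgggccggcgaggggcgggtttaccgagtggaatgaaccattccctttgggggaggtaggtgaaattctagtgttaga
Mrps18a: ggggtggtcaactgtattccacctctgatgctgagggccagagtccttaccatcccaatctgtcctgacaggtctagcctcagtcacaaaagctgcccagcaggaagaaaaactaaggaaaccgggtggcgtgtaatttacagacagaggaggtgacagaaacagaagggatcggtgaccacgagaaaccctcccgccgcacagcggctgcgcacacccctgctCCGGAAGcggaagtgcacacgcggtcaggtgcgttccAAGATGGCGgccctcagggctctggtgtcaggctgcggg
Counted from the start, the NRF1 core of Mrpl17 began at position −11 and its ETS core at −237. In Mrps18a the ETS core began at −26 and the YY1 core lay after the start, from position 12. Mrps11 shares its promoter region with a large subunit member, Mrpl46, on the opposite strand of chromosome 7. By the gene ends of the Gencode annotation, their starts are 412 bases apart with each start inside the other gene, so the genes overlap there. They share 173 exonic bases, 12.2% of those of Mrpl46 and 7.97% of those of Mrps11. The RefSeq windows of both genes also overlap.

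Total counts ran from 17739252 to 25945134 per library, and the members together took between 0.163% and 0.245% of them. Hepatocyte markers were high in every library, with a summed level over 10 genes of 56230 to 166457 CPM (counts scaled to library size). Macrophage markers were also present and varied widely, with a median summed level over 12 genes of 295 CPM in ND+veh, 2979 CPM in HFD+veh and 236 CPM in HFD+eRapa. HFD+veh replicates 3, 4, 5 and 6 carried the most immune marker RNA, at 1.28 to 1.75 on a score averaged over 19 immune marker genes (each scaled to SD 1), against −0.54 to 0.61 in the other 3 animals of that group. Of the libraries, HFD+veh replicate 6 stood lowest for several members by a wide margin, and ND+veh replicate 4 stood lowest in its group for both subunits, so the counts of called members that follow are also given without them. In bulk RNA of this kind, fewer cells of a type and less RNA per cell cannot be told apart.

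Per unit of length, members spanned a wide range of levels, here given as the deposited FPKM (fragments scaled to transcript length and to library size), averaged over all 24 libraries. The median member stood at 29.0 FPKM in the large subunit and 23.6 FPKM in the small subunit. Mrpl52, a protein found only in mitochondrial ribosomes, was highest at 224 FPKM, followed in its subunit by Mrpl33, of bacterial descent, at 101 FPKM. Mrps21 (114 FPKM), also of bacterial descent, and Mrps34 (58.6 FPKM), which helps keep the small ribosomal RNA stable, led the small subunit. The lowest were Mrpl19 (2.75 FPKM) and Mrpl47 (5.65 FPKM), near the exit of the peptide tunnel, and in the small subunit Mrps30 (6.85 FPKM) and Mrps25 (9.77 FPKM). The order depended on the length used: Mrpl52, Mrpl33 and Mrps21 were at 34.0, 23.8 and 24.2 CPM, not far above Mrps30 at 16.1 CPM.

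**Figure D1:**
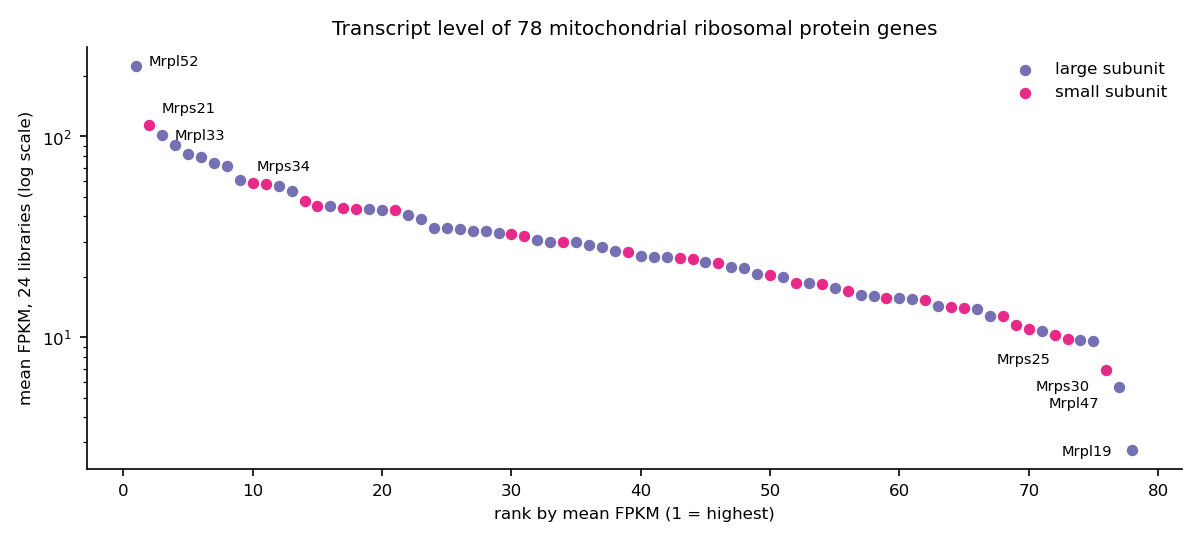
Mean FPKM over 24 libraries (log axis) of the 78 members, ranked from highest to lowest, with large subunit members in purple and small subunit members in pink. Both subunits span the range, from Mrpl52 at 224 FPKM to Mrpl19 at 2.75 FPKM.

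Members rose and fell together from animal to animal within a group. After each group's mean was removed, the mean Pearson correlation between pairs of members over the 24 libraries was 0.42. Between pairs of all 13847 genes it was 0.00361. Scaling libraries to a common level holds that second value near 0, so it is a weak yardstick, and no genes of like level or G+C were compared. The spread of a single member was small, with a median SD within groups of 0.26 on the log2 CPM scale against 0.38 for all genes. It ran from 0.13 for Mrpl3 to 0.51 for Mrpl53.

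The level of a subunit in an animal was taken as the median over its members of log2 CPM minus each member's mean over all 24 libraries. For the large subunit it ran from −0.36 to 0.11 with a median of −0.05 in ND+veh, from −0.32 to 0.22 with a median of −0.23 in HFD+veh, and from −0.20 to 0.44 with a median of 0.17 in HFD+eRapa. For the small subunit the lowest, median and highest were −0.38, −0.01 and 0.07 in ND+veh, −0.25, −0.20 and 0.24 in HFD+veh, and −0.10, 0.13 and 0.47 in HFD+eRapa. The groups overlapped in both subunits. In HFD+veh the animals split, with replicates 1, 5 and 7 between 0.04 and 0.24 in either subunit and replicates 2, 3, 4 and 6 between −0.32 and −0.20. Of the low animals, replicates 3, 4 and 6 had a high immune marker score and replicate 2 did not (−0.48), and replicate 5, with a high score of 1.28, was not low. In HFD+eRapa, replicate 8 was highest and replicate 9 lowest for either subunit.

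**Figure D2:**
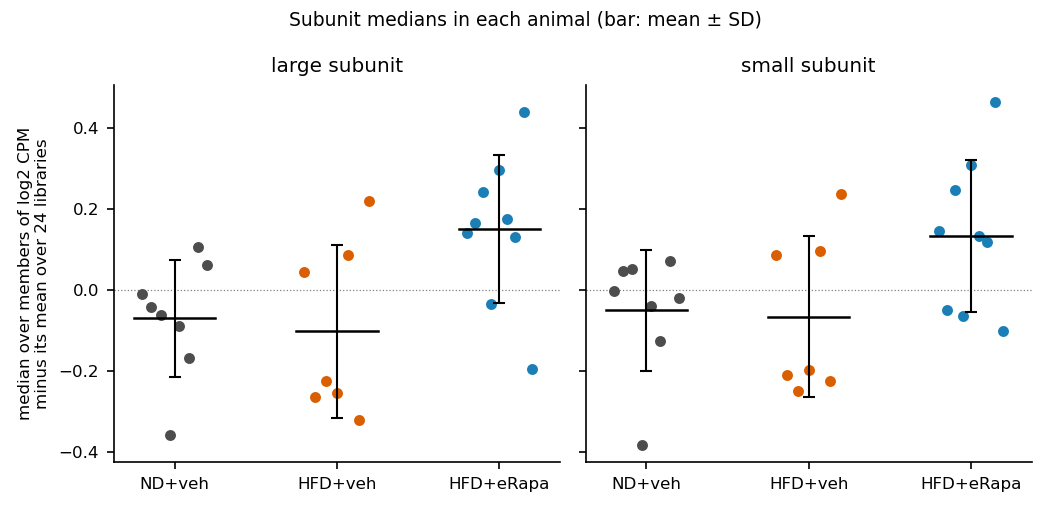
Median over members of log2 CPM, centred on each member's mean over 24 libraries, for the large (left) and small (right) subunit, with 1 point per animal and bars for the group mean ± SD. HFD+veh holds 3 animals at 0.04 or above and 4 at −0.20 or below, and HFD+eRapa reaches highest, at 0.44 and 0.47.

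On high-fat diet with vehicle, few members differed from normal diet, and they went both ways. Mrpl42, found only in mitochondrial ribosomes, and Mrpl13, of bacterial descent, rose in the large subunit, and Mrps33 and Mrps9 rose in the small subunit. Mrpl53 and Mrpl38, which sit at the stalk and the central protuberance of the large subunit and have no bacterial counterpart, fell, as did Mrps34 and Mrps18a. In all, 2 of 49 large and 2 of 29 small subunit members were called higher at an adjusted p under 0.05 (edgeR, over all genes), where 16.0% of all genes were, and 2 and 2 were called lower, where 9.86% were. The median log2 fold change was −0.03 for the large and −0.05 for the small subunit, against 0.05 for all genes tested. No member's groups failed to overlap, where 2.44% of all genes did not overlap.

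Mrpl42 ranged from 21.7 to 31.6 CPM (median 25.04) in ND+veh and from 26.5 to 56.8 CPM (median 38.8) in HFD+veh, and all 7 HFD+veh animals were above the ND+veh median. Its log2 fold change was 0.66 ± 0.14 (SE, edgeR adjusted p = 0.00194), the firmest of this comparison. Mrps33, from 9.42 to 11.8 CPM (median 10.5) in ND+veh, stood between 10.4 and 17.7 CPM (median 16.2) in HFD+veh, with 6 of 7 animals above the ND+veh median. The change was 0.53 ± 0.14 (edgeR adjusted p = 0.00872). Mrpl13 changed by 0.39 ± 0.13 (edgeR adjusted p = 0.0335) and Mrps9 by 0.25 ± 0.08 (edgeR adjusted p = 0.0347). For Mrps9, all 7 HFD+veh animals, between 15.1 and 17.3 CPM, lay above the ND+veh median of 13.1 CPM.

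Mrps34 showed the clearest fall. It ranged from 27.5 to 41.4 CPM (median 36.4) in ND+veh and from 8.39 to 32.6 CPM (median 26.4) in HFD+veh, so no HFD+veh animal reached the ND+veh median. It changed by −0.61 ± 0.21 (edgeR adjusted p = 0.0329). Mrps18a went from 19.2 to 27.4 CPM (median 24.03) in ND+veh to 7.76 to 22.5 CPM (median 18.2) in HFD+veh, again with no animal above the ND+veh median, and changed by −0.44 ± 0.16 (edgeR adjusted p = 0.0468). Mrpl38 ranged from 40.0 to 61.1 CPM in ND+veh and from 13.8 to 51.7 CPM in HFD+veh, a change of −0.58 ± 0.20 (edgeR adjusted p = 0.0357). In Mrps34, Mrps18a and Mrpl38 the lowest HFD+veh animal was replicate 6. Without that animal, 1 large subunit member was called by edgeR in place of 4, and 3 small subunit members in place of 4, where 7.10% of all genes were higher and 8.04% lower. Without it and ND+veh replicate 4, 1 member of each subunit was called higher and 1 lower, where 8.55% and 8.13% of all genes were.

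The call for Mrpl53 rests on few reads. It was counted at 0.37 to 1.44 CPM in ND+veh and 0.26 to 0.78 CPM in HFD+veh, for a change of −0.87 ± 0.31 (edgeR adjusted p = 0.0409), whereas its FPKM ran from 44.1 to 65.0 (median 56.9) and from 30.0 to 61.7 (median 44.4) in the same animals. Of its exonic bases, 88.0% are shared on the same strand with the gene Gm42688, where reads that fit both genes cannot be assigned. On log2(FPKM + 0.1) the change was −0.32 and limma gave an adjusted p of 0.0793. Mrps34 is uncertain in another way, as 63.4% of its exonic bases lie opposite Mapk8ip3 and 37.0% are shared on the same strand with Nme3, and whether the counting used strand is not stated.

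More members were called with rapamycin on the high-fat diet, all of them higher, mainly in the large subunit. None of these calls held with a marker score of other liver cell types in the fit, and markers of macrophages, endothelial and stellate cells were lower in the same comparison, as given below. Of the large subunit 13 of 49 (26.5%) were called higher than in HFD+veh and of the small subunit 4 of 29 (13.8%), where 10.9% of all genes were called higher. None was called lower, where 21.1% of all genes were, and no member's groups failed to overlap, where 2.59% of all genes did not overlap. Among the rises were Mrpl12, the stalk protein that also binds the mitochondrial RNA polymerase, Mrpl17, Mrpl28 and Mrpl9, all of bacterial descent, and in the small subunit Mrps34, Mrps7, Mrps18a and Mrps11. DESeq2 called 13 and 5 members higher and none lower. At an unadjusted p under 0.05, 24 large and 11 small subunit members were higher by edgeR, and 1 member, of the small subunit, was lower. Of all genes, 42.7% were under that unadjusted p in either direction. The median log2 fold change was 0.27 for the large and 0.18 for the small subunit, against −0.04 for all genes, and 42 of 49 and 25 of 29 estimates were above 0. On log2(FPKM + 0.1) the medians were 0.18 and 0.11, against −0.10 for all genes, and 37 and 18 estimates were above 0. Limma called 9 and 2 members higher and 0 and 1 lower on that scale, where 6.28% of all genes were higher and 17.5% lower.

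Mrpl12 ranged from 26.1 to 91.2 CPM (median 69.0) in HFD+veh and from 75.6 to 123 CPM (median 108) in HFD+eRapa. All 9 HFD+eRapa animals were above the HFD+veh median, though the groups overlapped. Its log2 fold change was 0.58 ± 0.18 (edgeR adjusted p = 0.0181), while against ND+veh (63.3 to 98.4 CPM) the value of 0.35 ± 0.18 did not pass (edgeR adjusted p = 0.21). Mrpl17 ranged from 16.7 to 43.9 CPM (median 31.3) in HFD+veh and from 40.5 to 57.6 CPM (median 47.8) in HFD+eRapa, for 0.55 ± 0.14 (edgeR adjusted p = 0.0049). Again all 9 treated animals lay above the HFD+veh median. Mrpl28 changed by 0.49 ± 0.17 (edgeR adjusted p = 0.0283) and Mrpl9 by 0.45 ± 0.12 (edgeR adjusted p = 0.00643).

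The other 9 called large subunit members changed by 0.27 to 0.43. Their adjusted p-values by edgeR lay between 0.0053 and 0.0444. They include Mrpl16, part of the large subunit's core (0.35 ± 0.09, edgeR adjusted p = 0.0053), Mrpl49 (0.37 ± 0.12, edgeR adjusted p = 0.0243) and Mrpl58. Mrpl58, a peptidyl-tRNA hydrolase built into the ribosome that releases stalled chains, ranged from 13.6 to 25.1 CPM (median 17.3) in HFD+veh and from 20.4 to 30.5 CPM (median 26.1) in HFD+eRapa. All 9 treated animals were above the HFD+veh median, and the change was 0.35 ± 0.13 (edgeR adjusted p = 0.0444). Of the 13 called, 11 had all 9 treated animals above the HFD+veh median, as had 13 of all 49 large subunit members. In the small subunit 1 of the 4 called members had, and 8 of all 29. The share over all genes was not counted.

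In the small subunit Mrps34 changed by 0.61 ± 0.20 (edgeR adjusted p = 0.0237), from 8.39 to 32.6 CPM in HFD+veh to 21.9 to 49.4 CPM (median 37.2) in HFD+eRapa. Mrps7, a protein of the head of the subunit, ranged from 20.3 to 62.1 CPM (median 43.6) in HFD+veh and from 47.8 to 78.6 CPM (median 60.8) in HFD+eRapa, and changed by 0.48 ± 0.16 (edgeR adjusted p = 0.0237). Mrps18a reached 16.4 to 29.1 CPM (median 23.7) in HFD+eRapa, a change of 0.43 ± 0.16 (edgeR adjusted p = 0.0367), with 8 of 9 animals above the HFD+veh median. Mrps11, of the platform, changed by 0.41 ± 0.16 (edgeR adjusted p = 0.046). Its neighbour Mrpl46, which overlaps it on the opposite strand, was chosen for naming after its values were seen and changed by 0.31 ± 0.11 (edgeR adjusted p = 0.0372). Mrps34 and Mrps18a were the only members called in opposite directions in both comparisons that hold HFD+veh, which share those 7 animals.

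In each of the 17 members called higher, the lowest HFD+veh animal was replicate 6. Without it, 9 large and 3 small subunit members were called higher by edgeR, all 12 of them among the 17, where 8.86% of all genes were called higher. Without it and ND+veh replicate 4, 11 large and 4 small subunit members were, where 9.82% of all genes were. Leaving out HFD+veh replicate 3 or replicate 4 left 7 large subunit members called each time. The share of all genes called higher was then 8.03% and 8.35%, against 10.9% with all libraries. In the small subunit 1 was called in either case, and without replicate 4 that call was the fall of Mrps36.

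**Figure D3:**
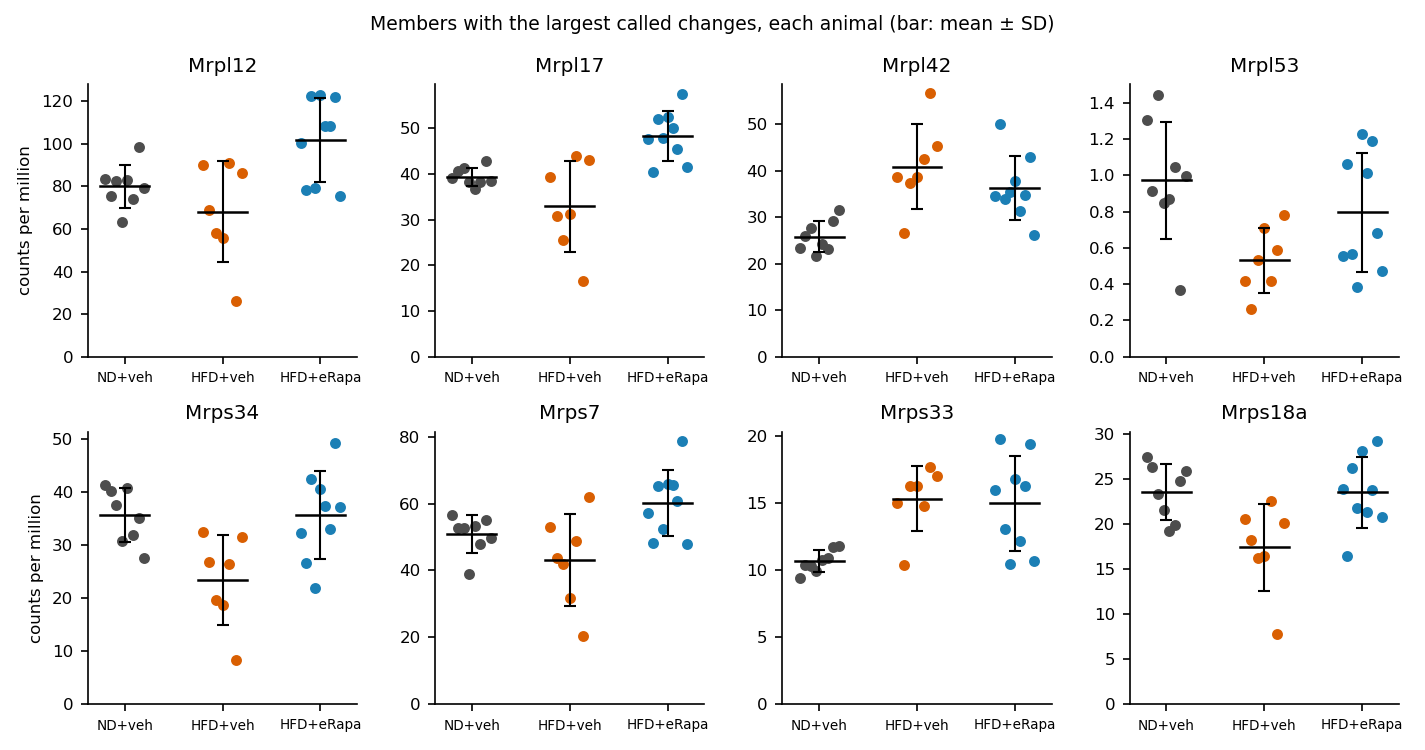
CPM (linear axes from 0) of 8 members in each animal, with bars for the group mean ± SD. HFD+veh replicate 6 is the lowest HFD+veh point for Mrpl12, Mrpl17, Mrps34, Mrps7 and Mrps18a, Mrpl53 stays below 1.5 CPM, and Mrpl42 and Mrps33 are higher in both high-fat groups than in ND+veh.

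Against normal diet, few members differed in rapamycin-fed animals on the high-fat diet, and those called were higher. In the large subunit 5 of 49 members (10.2%) and in the small subunit 3 of 29 (10.3%) were called higher, where 6.93% of all genes were, and the same numbers were called without the 2 libraries that stood apart. No member was called lower, where 6.54% of all genes were, and none was lower at an unadjusted p under 0.05 by edgeR or by DESeq2. DESeq2 called 7 and 4 members higher, where it called 7.97% of all genes higher. The median log2 fold change was 0.21 for the large and 0.16 for the small subunit, against −0.03 for all genes, and 44 of 49 and 24 of 29 estimates were above 0. On log2(FPKM + 0.1) the medians were 0.07 and 0.04, against −0.12 for all genes. Limma called 4 and 0 members higher on that scale, where 3.88% of all genes were. In the small subunit 3 members were higher and 2 lower at an unadjusted p under 0.05 by limma.

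Mrpl42 (26.2 to 50.1 CPM, median 34.7, in HFD+eRapa) changed by 0.49 ± 0.13 (edgeR adjusted p = 0.0104) and Mrps33 (10.4 to 19.8 CPM, median 16.0) by 0.49 ± 0.13 (edgeR adjusted p = 0.0108). Mrpl13 (0.48 ± 0.13, edgeR adjusted p = 0.0108) and Mrps9 (0.28 ± 0.08, edgeR adjusted p = 0.0182) were likewise above ND+veh. These 4 were the members called higher in HFD+veh too, and both comparisons share the ND+veh animals. The others were Mrpl16, Mrpl49, Mrpl50 and Mrps17. Mrpl16 ranged from 27.4 to 34.7 CPM (median 31.2) in ND+veh and from 36.5 to 46.3 CPM (median 41.9) in HFD+eRapa, so the groups did not overlap. It changed by 0.42 ± 0.09 (edgeR adjusted p = 0.00191). Mrps17, of bacterial descent, ranged from 24.1 to 33.3 CPM (median 31.2) and from 33.9 to 42.8 CPM (median 38.2), again without overlap, and changed by 0.34 ± 0.08 (edgeR adjusted p = 0.00498). These were the 2 of 78 members whose groups did not overlap, where 3.37% of all genes did not.

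**Figure D4:**
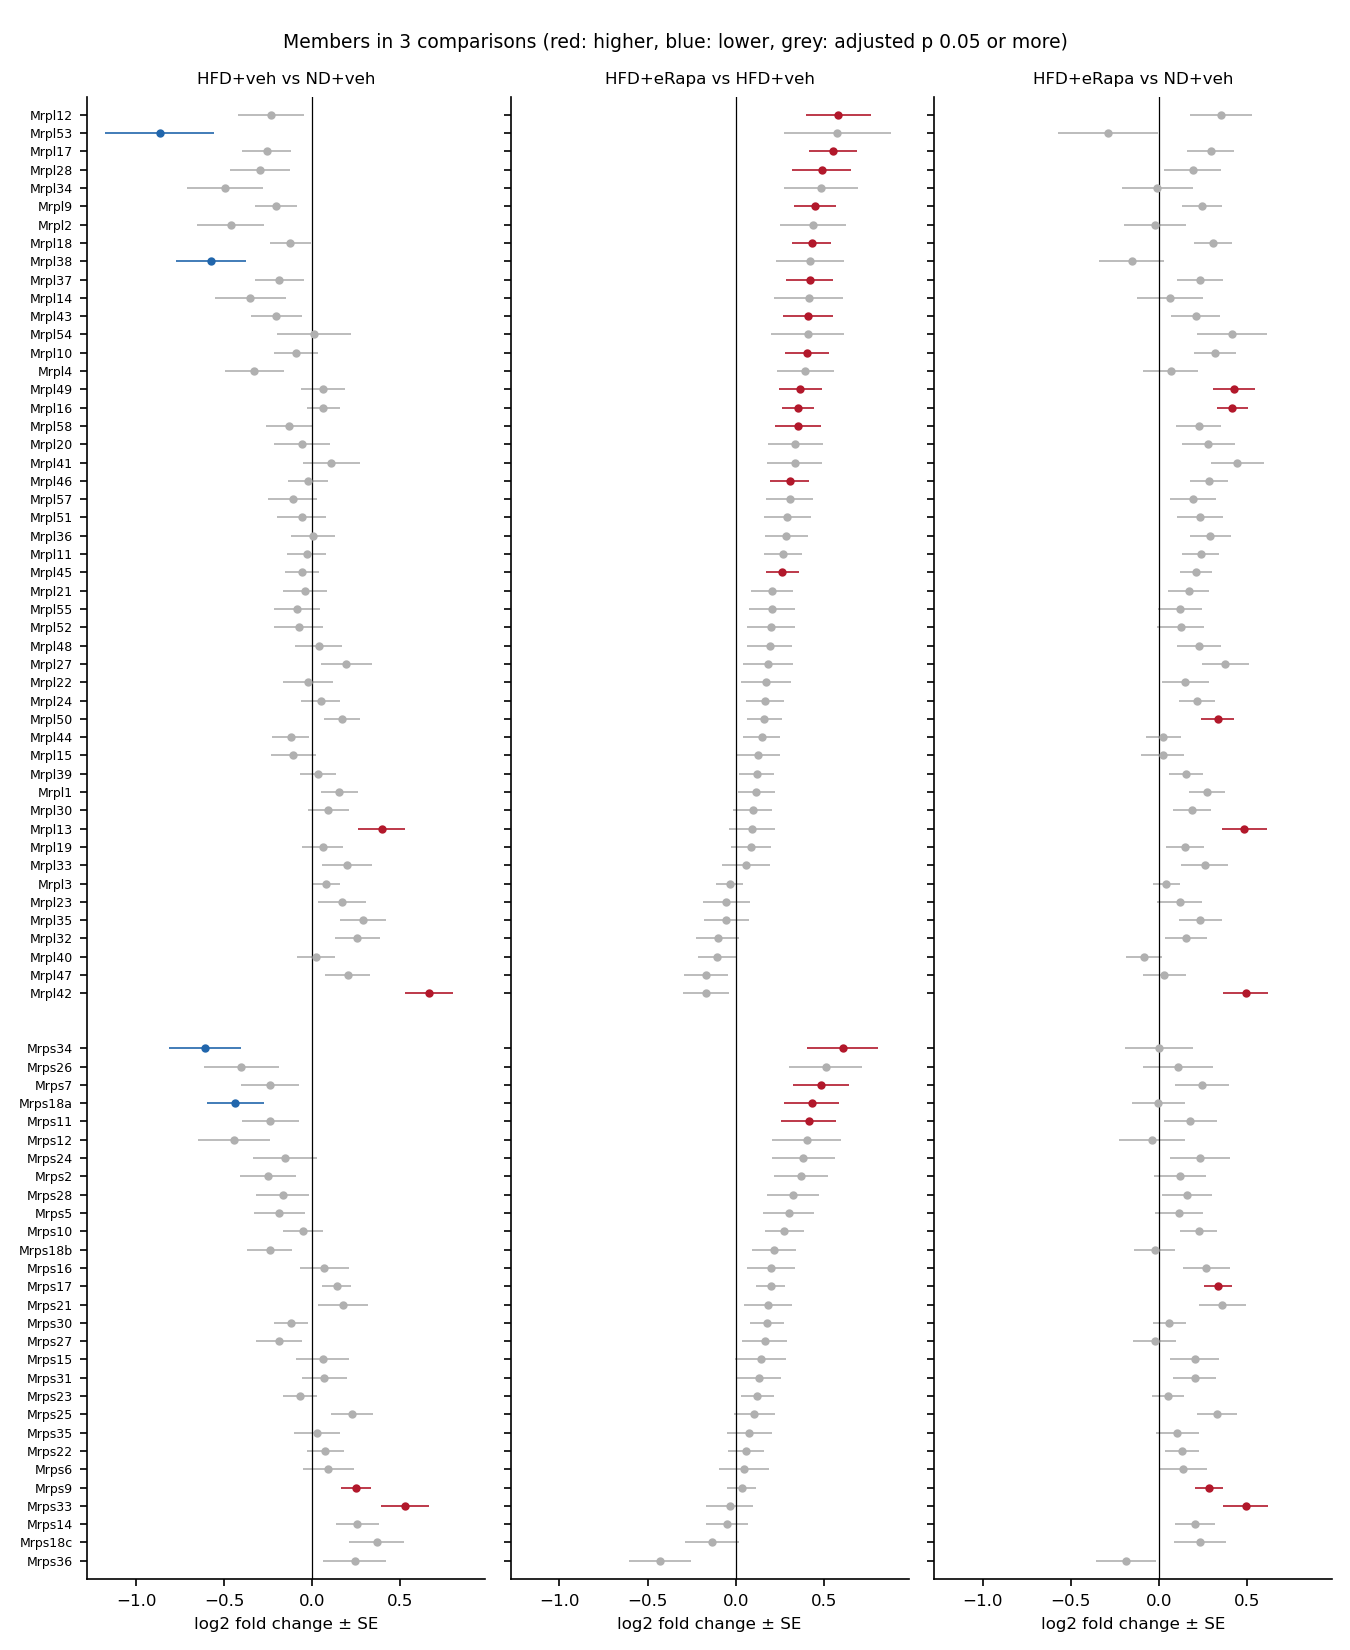
Log2 fold change ± SE of the 78 members in the 3 comparisons, large subunit above and small subunit below, each ordered by HFD+eRapa against HFD+veh. Red marks members called higher, blue those called lower and grey the rest. The middle panel holds 17 red and 0 blue members, the left panel 4 and 4, and the right panel 8 and 0.

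Some estimates with rapamycin on the high-fat diet lay below 0, and that of Mrps36 was the lowest. This protein carries a mitoribosome name but is a component of the 2-oxoglutarate dehydrogenase complex. It ranged from 5.02 to 8.92 CPM (median 6.75) in HFD+veh and from 3.37 to 8.41 CPM (median 5.31) in HFD+eRapa, a change of −0.43 ± 0.17 that did not pass (edgeR adjusted p = 0.0626). By FPKM it was called lower: it ranged from 14.6 to 25.4 FPKM (median 18.6) in HFD+veh and from 8.20 to 16.7 FPKM (median 12.4) in HFD+eRapa, for −0.58 on log2(FPKM + 0.1), with an adjusted p of 0.00564 by limma. It was the only member called lower in that comparison under any alternative tried, and 7 alternatives called it. The 3 paralogs of Mrps18 differed in value. Mrps18a, which lies in the large subunit in structures of the ribosome, is given above. Mrps18b (0.22 ± 0.12, edgeR adjusted p = 0.184) and Mrps18c (−0.13 ± 0.15, edgeR adjusted p = 0.53) did not pass, and the differences between paralogs were not tested. Mrps30, also placed in the large subunit by structures, changed by 0.18 ± 0.09 (edgeR adjusted p = 0.155), and Mrps12, at the decoding centre, by 0.40 ± 0.20 (edgeR adjusted p = 0.121). With Mrps18a and Mrps30 moved to the large subunit and Mrps36 left out, 14 large and 3 small subunit members were called higher. By descent, 7 of 29 large subunit members with a bacterial homolog and 6 of 19 found only in mitochondria were called higher, with medians of 0.21 and 0.31. In the small subunit these counts were 2 of 16 (median 0.21) and 1 of 9 (median 0.12). In this comparison 10.9% of all genes were called higher, and the differences by descent were not tested.

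The size of the change in the comparisons with HFD+veh varied with base composition. Over the 78 members, the G+C share of the coding sequence (41.6% to 65.6%) had a Spearman correlation of −0.79 with the log2 fold change of HFD+veh against ND+veh, and of 0.80 with that of HFD+eRapa against HFD+veh. These comparisons share the HFD+veh libraries. Over all 12449 tested genes with a coding sequence the values were −0.32 and 0.19. For HFD+eRapa against ND+veh the value over members was −0.19. Of the 26 members with the highest G+C (56.0% to 65.6%), 4 were called lower and 0 higher by edgeR in HFD+veh against ND+veh, and 9 were called higher with rapamycin, where all 26 estimates were above 0. The 26 members with the lowest G+C (41.6% to 51.3%) held all 4 rises on high-fat diet, and 2 were called higher with rapamycin. Members are not independent points, since all are read from the same 24 libraries.

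Libraries differed in this respect in every group. Within a library, the Spearman correlation over all genes between G+C and the deviation from the mean over libraries ran from −0.15 to 0.32 in ND+veh, from −0.47 to 0.07 in HFD+veh and from −0.52 to 0.25 in HFD+eRapa. Over the members alone it was lowest in HFD+veh replicate 6 (−0.84) and next lowest in HFD+eRapa replicate 2 (−0.67). The highest value was 0.66, in HFD+eRapa replicate 6. Without HFD+veh replicate 6 the correlations over members were −0.70 for HFD+veh against ND+veh and 0.68 for HFD+eRapa against HFD+veh. With the immune marker score in the fit they were −0.64 and 0.30, and with the score of endothelial, stellate cell and cholangiocyte markers −0.76 and 0.26. In a fit with a smooth trend in coding G+C taken out of each library, chosen after the data were seen, HFD+eRapa against HFD+veh gave 16 large and 7 small subunit members higher, with medians of 0.27 and 0.21 and a remaining correlation of 0.50, where 14.2% of the 12449 genes in that fit were called higher. For HFD+veh against ND+veh that fit left the rises of Mrpl42 and Mrps33 and the fall of Mrps18a, where 15.3% of its genes were called higher and 11.6% lower. How G+C content came to move with the comparison was not tested.

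**Figure D5:**
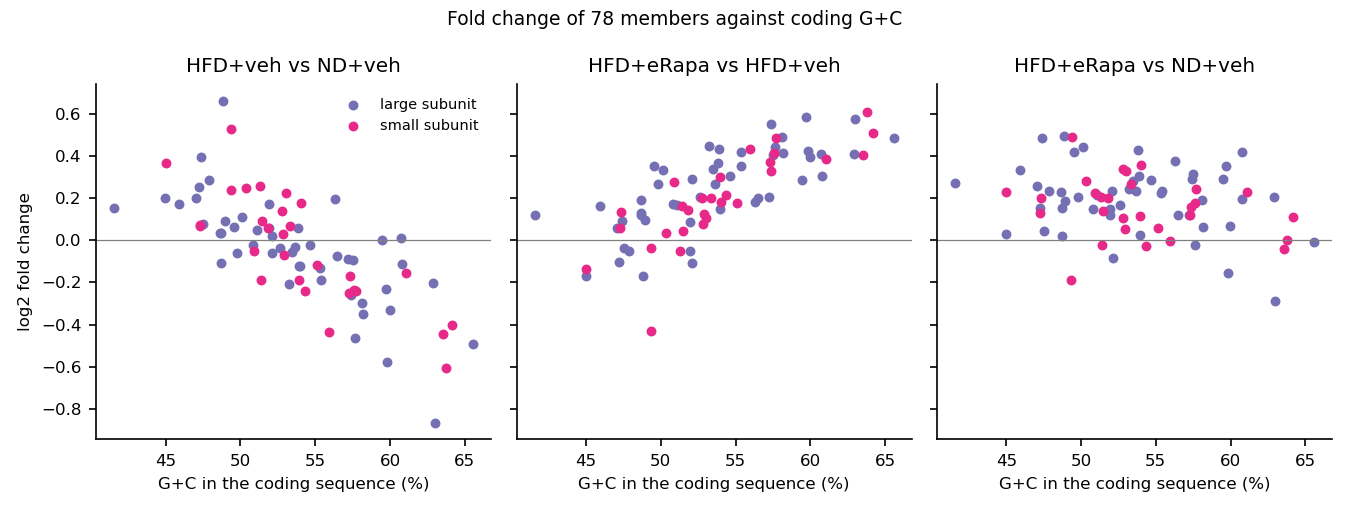
Log2 fold change of the 78 members (vertical) against the G+C share of the coding sequence in % (horizontal) in the 3 comparisons, large subunit in purple and small in pink. The points fall from left to right in the first panel (Spearman −0.79), rise in the second (0.80) and show little slope in the third (−0.19).

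Markers of other liver cells moved with the comparison too. Between HFD+eRapa and HFD+veh 10 of 12 macrophage, 10 of 10 endothelial and 10 of 10 stellate cell markers were lower by edgeR. The summed macrophage level was 197 to 5885 CPM in HFD+veh and 19.5 to 1220 CPM in HFD+eRapa, and none of the 12 genes was at 0 throughout a group. When the immune marker score entered the fit as a covariate, 0 members were called between these groups by edgeR. At an unadjusted p under 0.05, 6 large and 1 small subunit members were then higher and the medians were 0.18 and 0.09. With a score of endothelial, stellate cell and cholangiocyte markers the count was again 0, with 4 large members higher and 1 small member lower unadjusted, and medians of 0.14 and 0.06. In these fits 3.13% and 2.42% of all genes were called higher, against 10.9% without a covariate. Against ND+veh, 9 large and 5 small subunit members were called higher in HFD+eRapa with the immune score, where 9.26% of all genes were. The score differs between HFD+veh and HFD+eRapa animals, so its share in the difference between them cannot be told apart from that of the drug.

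Some proteins of the mitochondrial ribosome do not carry an Mrp name. Of 5 tested, Dap3, a small subunit protein that binds GTP, rose with rapamycin on the high-fat diet (0.29 ± 0.08, edgeR adjusted p = 0.00723). It ranged from 22.2 to 33.6 CPM in HFD+veh and from 33.0 to 39.9 CPM in HFD+eRapa. Dap3 and Ptcd3 were higher than in ND+veh (0.34 ± 0.08 and 0.47 ± 0.10, edgeR adjusted p = 0.00321 and 0.00179). In HFD+veh against ND+veh, Ptcd3 rose (0.38 ± 0.10, edgeR adjusted p = 0.0113) and Gadd45gip1 fell (−0.62 ± 0.22, edgeR adjusted p = 0.0448).

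The machinery around the ribosome was read from lists in the same fits, where 10.9% of all genes were higher and 21.1% lower with rapamycin on the high-fat diet. Of 25 assembly factors and rRNA-modifying enzymes, 5 rose and 0 fell with rapamycin on the high-fat diet (median 0.19), among them Rcc1l (0.61 ± 0.16, edgeR adjusted p = 0.00592) and the GTPase Mtg1 (0.53 ± 0.11, edgeR adjusted p = 0.00116). Of 14 translation factors 5 were higher and 0 lower (median 0.29), with the elongation factors Tsfm (0.64 ± 0.20, edgeR adjusted p = 0.015) and Tufm (0.40 ± 0.15, edgeR adjusted p = 0.0455) foremost. Of 17 mitochondrial tRNA synthetases 5 were higher and 0 lower (median 0.31), led by Ears2 (0.62 ± 0.16, edgeR adjusted p = 0.0053). Of 12 genes for transcription and upkeep of mitochondrial DNA 3 were higher and 0 lower (median 0.20), including the helicase Twnk (0.55 ± 0.15, edgeR adjusted p = 0.00742), which overlaps Mrpl43 on the opposite strand over 33.4% of the exonic bases of Mrpl43. Lower at an unadjusted p under 0.05 by edgeR were 0, 0, 0 and 1 genes of these 4 lists, and DESeq2 called 6, 5, 5 and 4 higher and none lower. Against the members' medians of 0.27 and 0.18, genes named as subunits of respiratory complex I (Nduf) had a median of 0.14 and proteins of the cytosolic ribosome 0.08. Of 37 complex I genes edgeR called 0 and DESeq2 1, with 4 higher and none lower at an unadjusted p under 0.05 by edgeR. Of 79 cytosolic ribosomal protein genes edgeR called 4 higher and DESeq2 8, and none was lower, also at an unadjusted p under 0.05.

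In HFD+veh against ND+veh assembly factors were called in both directions. Mettl15, which methylates the small ribosomal RNA, rose (0.79 ± 0.15, edgeR adjusted p = 0.000904), from 1.70 to 3.15 CPM in ND+veh to 3.14 to 5.06 CPM in HFD+veh, whereas Ngrn fell (−0.46 ± 0.12, edgeR adjusted p = 0.00802). In all, 2 of 25 assembly factors were higher and 4 lower, 1 of 17 synthetases was higher and 1 lower, and 1 of 14 translation factors was higher. Of all genes, 16.0% were higher and 9.86% lower in this comparison. Of 12 genes for mitochondrial DNA 0 were called by edgeR, with 1 higher and 2 lower at an unadjusted p under 0.05, and DESeq2 called 1. The messages that the ribosome translates, 13 transcripts of the mitochondrial genome, were higher in 8 cases by edgeR (9 by DESeq2) and lower in none, also at an unadjusted p under 0.05 (median 0.63), where 16.0% of all genes were higher. In HFD+eRapa against HFD+veh 1 of the 13 was higher (mt-Nd6, 0.42 ± 0.14, edgeR adjusted p = 0.0298), where 10.9% of all genes were.

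Of 8 nuclear regulators of mitochondrial genes, 1 rose and 1 fell in HFD+veh against ND+veh, where 16.0% of all genes were higher and 9.86% lower. These were the coactivator Ppargc1b (0.67 ± 0.23, edgeR adjusted p = 0.0389), which rose, and Yy1 (−0.33 ± 0.11, edgeR adjusted p = 0.028), which fell. In HFD+eRapa against HFD+veh none was called higher by edgeR or DESeq2, or at an unadjusted p under 0.05. Of all genes, edgeR called 10.9% higher and 21.1% lower there. Ppargc1a, a coactivator of mitochondrial biogenesis, fell. It ranged from 5.61 to 19.2 CPM (median 9.07) in HFD+veh and from 3.82 to 6.82 CPM (median 5.44) in HFD+eRapa, a change of −0.89 ± 0.23 (edgeR adjusted p = 0.00525). It was also below ND+veh (−0.78 ± 0.22, edgeR adjusted p = 0.0176). Factors whose motifs were searched were named after their values were seen. With rapamycin on the high-fat diet Nrf1, Gabpa and Yy1 had values of −0.11 ± 0.09, 0.03 ± 0.09 and 0.21 ± 0.11. Their edgeR adjusted p-values were 0.38, 0.814 and 0.127. Esrra, an ERR factor, ranged from 9.49 to 42.4 CPM (median 21.3) in HFD+veh and from 11.3 to 35.7 CPM (median 24.7) in HFD+eRapa. Among the members, those with the ETS core had a median change of 0.20 (26 genes, 5 called higher) and those without it 0.21 (43 genes, 11 called higher). With and without the NRF1 core the medians were 0.22 (7 genes, 3 called) and 0.20 (62 genes, 13 called), and with and without the YY1 core 0.34 (8 genes, 3 called) and 0.20 (61 genes, 13 called). With and without the E-box they were 0.34 (5 genes, 1 called) and 0.20 (64 genes, 15 called).

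Reads of 10 members may be affected by a neighbour, as 20% or more of their exonic bases are shared with another gene. Besides Mrpl53, Mrps34 and Mrpl43 these are Mrpl19, Mrpl24, Mrpl47, Mrps18b, Mrps18c, Mrps25 and Mrps27, named for that reason. For 17 members the annotation holds a pseudogene at least 95% identical over 200 bases or more. None of the pseudogenes with a count had more than 1.71% of the counts of its member. For the pseudogene of Mrps10, 97.9% identical over 573 bases, no count was available. Mrps26 shares such a stretch with 26 other genes.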

How the data were processed

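Members and gene lists were chosen with earlier results of these data known. The deposited counts per gene were made by the authors with STAR in 2-pass mode on mm10 with the Gencode vM23 annotation and HTSeq 0.11.2, whose strand setting is not stated, and SAMtools 1.1.0 is also named in the submitters' processing notes. The deposited FPKM came from Cufflinks, run by the authors. No column lacked a sample. Counts were tested with edgeR 4.0.16 in R 4.3.3 (filterByExpr, TMM factors, robust quasi-likelihood test) in 1 fit of all 24 libraries, with Benjamini-Hochberg adjustment over 13847 genes and calls at an adjusted p under 0.05. The SE is the log2 fold change divided by the root of F. The p-values measure the spread between animals that the labels name as separate, and no 2 libraries of a group agreed within sampling noise (lowest chi-square per degree of freedom 12.3). Log2 CPM used a prior count of 2. Alternatives used DESeq2 1.42.0, other size factors and filters, limma 3.58.1 on log2(FPKM + 0.1) and log2(FPKM + 1), marker scores as covariates, and each library left out in turn. Leaving out ND+veh replicate 4 and HFD+veh replicate 6 together and the G+C trend (loess span 0.5) were added after seeing the data. The fit was tested on simulated data. Positions and overlaps came from a Gencode M21 annotation and promoter windows from RefSeq, both on the GRCm38 build.

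Named with values were, in each comparison and subunit, up to 4 called members with the largest rise and up to 4 with the largest fall, the 2 highest and 2 lowest by mean FPKM in each subunit, 8 members for their roles (Mrpl12, Mrpl58, Mrps12, Mrps30, Mrps36, Mrps18a, Mrps18b and Mrps18c), and up to 2 called genes with the largest change per list. Mrpl46, Mrpl50, Mrpl10, Mrpl3 and the members that overlap a neighbour were named outside that rule, after their values were seen. Same replicate numbers in different groups belong to different animals.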

Additional observations from a re-analysis of the deposited data

Results flagged for a closer look

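In 11 of 120 groups of values tested, the lowest or highest animal stood apart from the others by Dixon's criterion, where chance gives about 6 (about 1 in 20). All values are log2 CPM unless named otherwise. In HFD+veh, replicate 6 was lowest for Mrpl12 at 4.71, against 5.81 to 6.51 in the other animals, and for Mrps34 at 3.09, against 4.23 to 5.03. It was also lowest for Mrps18a at 2.97, against 4.02 to 4.50, for Mrps11 at 1.94, against 2.77 to 3.21, and for Mrps30 at 3.46, against 3.84 to 4.08. HFD+veh replicate 2 was lowest for Mrps33 at 3.39, against 3.89 to 4.15.

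In ND+veh, replicate 4 was lowest for Mrps7 at 5.28, against 5.58 to 5.82, and for the centred median of the small subunit at −0.38, against −0.13 to 0.07. Replicate 8 of that group was highest for Mrpl52 at 5.59, against 4.77 to 5.11, and replicate 7 lowest for Mrpl53 at −1.10, against −0.08 to 0.62. In HFD+eRapa, replicate 9 had the lowest ratio of summed large to summed small subunit CPM at 2.02, against 2.12 to 2.23.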

How the results depend on the processing

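No called member changed sign under any alternative run. The median log2 fold change of each subunit moved by less than the SD between animals of its centred median, taken in the group where that SD was highest. That SD, 0.21 for the large and 0.20 for the small subunit in HFD+veh, was about as large as the medians themselves. Staying within it therefore does not show that a median was stable. The size of these medians did change. For HFD+eRapa against ND+veh, 0.21 and 0.16 became 0.07 and 0.04 on log2(FPKM + 0.1) and 0.06 and 0.04 on log2(FPKM + 1). With total counts as library size they became 0.14 and 0.08. The median of all genes also moved down in these fits, from −0.03 to −0.12, −0.08 and −0.12 in the same order. For HFD+eRapa against HFD+veh, 0.27 and 0.18 became 0.14 and 0.06 with the endothelial, stellate cell and cholangiocyte score. For HFD+veh against ND+veh the medians lay near 0 and changed sign with either score (0.02 and 0.04 with the immune score). Counts of called members moved more. For HFD+veh against ND+veh, the large subunit count of 4 became 1 with no expression filter, with either marker score and with the G+C trend removed, and 2 without the 2 libraries that stood apart. The small subunit count of 4 became 2 with no filter, on log2(FPKM + 0.1), without those 2 libraries and with the G+C trend removed, 1 with only the groups compared and with the endothelial, stellate cell and cholangiocyte score, and 0 with the immune score. For HFD+eRapa against HFD+veh, both counts (13 and 4) became 0 with either marker score, and the small one 1 with only the groups compared and 7 with the G+C trend removed. For HFD+eRapa against ND+veh, the large count of 5 became 10 with only the groups compared, 9 with the immune score, 8 (7 higher, 1 lower) with the other score and 12 with the G+C trend removed, and the small count of 3 became 5 with only the groups compared and with the immune score, and 0 by limma on either FPKM scale. The causes of these moves were not tested.

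With 1 library left out at a time, the counts ran from 1 to 5 (large) and 1 to 6 (small) for HFD+veh against ND+veh, with medians from −0.12 to 0.01 and from −0.14 to 0.01. For HFD+eRapa against HFD+veh they ran from 7 to 18 and from 1 to 9, with medians from 0.22 to 0.31 and from 0.17 to 0.23. The large count was lowest without HFD+veh replicate 3 or 4, where 8.03% and 8.35% of all genes were called higher, against 10.9% with all libraries. The small count was 1 without either of them, 2 without HFD+eRapa replicate 1, 3 or 5, 7 without HFD+veh replicate 1 and 9 without HFD+veh replicate 7. For HFD+eRapa against ND+veh they ran from 4 to 9 and from 2 to 5, with medians from 0.15 to 0.25 and from 0.13 to 0.20.

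The labels do not pair animals across groups. With the replicate number as a block, HFD+veh against ND+veh gave 4 and 3 called members, where 15.3% of all genes were higher and 10.4% lower. HFD+eRapa against HFD+veh gave 0 and 0, where only 1.15% of all genes were higher and 1.17% lower. HFD+eRapa against ND+veh gave 14 and 5, all higher, where 8.38% of all genes were higher. Same-numbered libraries correlated at a mean of 0.32, −0.24 and −0.20 over 7, 7 and 8 pairs, and 2, 0 and 0 libraries correlated best with their own number.

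Depth limits the value of Mrpl53, counted at under 1.5 CPM in every library.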
